A study of Mus musculus with 20 samples.

Results

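The olfactory receptor genes of mouse chromosomes 9 and 19 were followed through 6 liver peak lists. Members were the protein-coding genes of the GENCODE basic annotation of GRCm38 (mm10) on these chromosomes whose symbol begins with Olfr, which gave 198 of 21938 protein-coding genes (0.903%), 132 on chromosome 9 and 66 on chromosome 19. A further 937 olfactory receptor genes lay on other chromosomes. The study located H3K14ac, acetylation of lysine 14 on histone H3, and the proteins Setdb1 and Kap1 by chromatin immunoprecipitation and sequencing (ChIP-Seq) in snap-frozen livers of wild-type C57BL/6 mice that were young (3 months) or old (21 months). Each list came from 3 pooled livers for H3K14ac and Setdb1 and from 2 for Kap1. The lists held positions without heights or scores, so a peak was present or absent, the read depth behind it is unknown, no spread between livers can be given, and no difference between ages was tested. Intervals are 95% and cover counting error only. In whole liver, fewer cells with a mark cannot be told apart from less of it per cell.

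Olfactory receptors are G protein-coupled receptors of the sensory neurons of the nose, and each such neuron expresses a single receptor allele out of the whole family. The genes stand in tandem clusters and carry their open reading frame in a single exon. Setdb1 is a methyltransferase of lysine 9 on histone H3, and Kap1 (Trim28) is the corepressor that recruits it to sites bound by KRAB zinc finger proteins. H3K14ac is a mark of active chromatin, found above all at the starts of transcribed genes, and a liver does not use these receptors for smell.

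The members formed 4 clusters when genes under 200 kb apart were joined, and all 198 fell inside them. Cluster chr9-A (chr9:18751507-20336094) held 37 members from Olfr24 to Olfr18, and chr9-B (chr9:37708964-40190134) held 95 from Olfr160 to Olfr986. On the other chromosome, chr19-A (chr19:11826803-12423569) held 22 from Olfr1417 to Olfr1441 and chr19-B (chr19:12670439-13921866) held 44 from Olfr1442 to Olfr1505. The clusters spanned 5.91 Mb in all, of which member gene bodies took 21.1% and member coding sequence 3.15%. The symbols of 6 members ended in a pseudogene suffix (such as Olfr1438-ps1) although the annotation calls them protein-coding, and they were kept.

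The sequences below are Setdb1 peaks that lay wholly inside the coding exon of a receptor on chromosome 19. They are shown because 10 of the 13 members with a young Setdb1 peak on coding sequence lay there. Each is the deposited peak read from GRCm38 on the strand of the gene, with coding bases in capitals, here all of them.
Olfr1441, Setdb1 young, chr19:12422396-12422595, plus strand: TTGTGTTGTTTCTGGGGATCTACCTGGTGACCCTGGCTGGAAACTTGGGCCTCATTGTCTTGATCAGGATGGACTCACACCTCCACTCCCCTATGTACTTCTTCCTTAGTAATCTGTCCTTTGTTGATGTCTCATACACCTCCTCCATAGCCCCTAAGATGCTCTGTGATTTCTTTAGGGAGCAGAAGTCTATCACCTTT
Olfr1449, Setdb1 young, chr19:12934995-12935194, plus strand: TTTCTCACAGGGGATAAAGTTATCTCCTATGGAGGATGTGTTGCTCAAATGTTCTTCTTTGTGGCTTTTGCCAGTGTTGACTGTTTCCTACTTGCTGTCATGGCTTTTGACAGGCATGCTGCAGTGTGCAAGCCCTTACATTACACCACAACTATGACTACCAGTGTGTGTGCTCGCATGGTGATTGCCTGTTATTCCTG
Olfr1453, Setdb1 young, chr19:13027734-13027933, minus strand: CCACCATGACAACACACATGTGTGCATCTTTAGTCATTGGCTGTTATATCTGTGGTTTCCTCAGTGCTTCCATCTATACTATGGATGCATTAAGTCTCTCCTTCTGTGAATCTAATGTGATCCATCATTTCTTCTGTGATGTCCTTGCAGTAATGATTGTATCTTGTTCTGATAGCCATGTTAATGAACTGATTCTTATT
Olfr1490, Setdb1 young, chr19:13655092-13655291, plus strand: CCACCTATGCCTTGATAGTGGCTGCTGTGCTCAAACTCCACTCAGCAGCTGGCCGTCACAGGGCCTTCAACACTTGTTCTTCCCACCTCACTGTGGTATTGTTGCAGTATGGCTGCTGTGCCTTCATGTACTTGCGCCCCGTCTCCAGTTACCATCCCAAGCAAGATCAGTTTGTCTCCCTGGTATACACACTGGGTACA
Olfr1494, Setdb1 young, chr19:13749261-13749460, plus strand: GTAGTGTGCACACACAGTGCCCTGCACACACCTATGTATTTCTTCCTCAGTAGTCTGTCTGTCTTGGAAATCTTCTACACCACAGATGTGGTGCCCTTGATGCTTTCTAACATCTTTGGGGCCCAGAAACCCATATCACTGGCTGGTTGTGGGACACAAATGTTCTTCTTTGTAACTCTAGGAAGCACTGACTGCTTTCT
Olfr1495, Setdb1 young, chr19:13769057-13769256, plus strand: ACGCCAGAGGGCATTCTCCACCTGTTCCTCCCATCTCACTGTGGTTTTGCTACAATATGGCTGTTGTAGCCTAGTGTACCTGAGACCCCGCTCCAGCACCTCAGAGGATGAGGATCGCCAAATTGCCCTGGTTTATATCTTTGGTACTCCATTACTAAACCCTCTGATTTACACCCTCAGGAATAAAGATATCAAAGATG
Olfr1495, Setdb1 old, chr19:13768956-13769155, plus strand: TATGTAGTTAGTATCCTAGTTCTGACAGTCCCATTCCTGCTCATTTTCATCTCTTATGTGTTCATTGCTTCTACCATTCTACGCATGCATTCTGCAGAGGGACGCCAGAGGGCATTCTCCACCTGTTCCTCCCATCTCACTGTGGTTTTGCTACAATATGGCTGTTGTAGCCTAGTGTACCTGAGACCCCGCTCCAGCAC

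These peaks fell at different places of the reading frame. The Olfr1441 peak covered coding bases 86 to 285, counted from the start codon, and the Olfr1494 peak bases 154 to 353. The Olfr1449 peak covered bases 256 to 455 and had 1 further copy in the genome, and the Olfr1453 peak covered bases 395 to 594. In Olfr1490 the peak took bases 662 to 861 of 963. Of those not shown, the Olfr1442 peak ended 26 bases into the frame, and the Olfr1496 peak took the last 146 coding bases and ran past the stop codon. In Olfr1495 the young peak (bases 714 to 913) and the old peak (bases 613 to 812) overlapped by 99 bp inside the exon, and no other member had Setdb1 on its coding sequence at both ages. The share of all genes with it there at both ages was not counted.

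Kap1 also met receptor coding sequence, and 3 of its peaks are shown in the same way, as an old peak of chromosome 19 and young peaks of chromosome 9.
Olfr1497, Kap1 old, chr19:13795187-13795336, minus strand: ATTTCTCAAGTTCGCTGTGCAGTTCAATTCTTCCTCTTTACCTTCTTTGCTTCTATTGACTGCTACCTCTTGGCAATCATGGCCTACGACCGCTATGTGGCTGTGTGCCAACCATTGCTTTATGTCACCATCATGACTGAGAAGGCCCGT
Olfr982, Kap1 young, chr9:40074997-40075146, plus strand: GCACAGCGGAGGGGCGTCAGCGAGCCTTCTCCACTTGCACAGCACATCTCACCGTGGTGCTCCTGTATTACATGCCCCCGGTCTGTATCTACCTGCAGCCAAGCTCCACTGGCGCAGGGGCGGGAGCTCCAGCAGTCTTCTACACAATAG
Olfr975, Kap1 young, chr9:39950020-39950169, minus strand: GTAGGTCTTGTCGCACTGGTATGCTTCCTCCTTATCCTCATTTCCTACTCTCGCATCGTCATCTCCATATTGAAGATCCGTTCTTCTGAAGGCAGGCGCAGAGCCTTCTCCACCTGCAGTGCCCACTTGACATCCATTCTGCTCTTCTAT

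The Olfr1497 peak covered coding bases 274 to 423. The young peak of Olfr982, at 60.7% GC, covered bases 701 to 850, and that of Olfr975 bases 601 to 750. The last of these met a young Setdb1 peak over 16 bp, inside the same exon.

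Peaks of different lists at the same place were few, and 3 of the pairs are shown as the first-named peak, with the bases shared with the second in capitals.
Setdb1 young with Setdb1 old, chr9:38015265-38015464, plus strand: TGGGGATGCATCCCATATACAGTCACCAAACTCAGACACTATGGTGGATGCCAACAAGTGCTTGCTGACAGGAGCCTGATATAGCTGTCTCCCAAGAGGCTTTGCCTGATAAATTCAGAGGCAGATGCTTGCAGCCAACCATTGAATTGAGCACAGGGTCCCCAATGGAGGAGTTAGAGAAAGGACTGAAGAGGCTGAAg
Kap1 young with Kap1 old, chr9:39094708-39094857, plus strand: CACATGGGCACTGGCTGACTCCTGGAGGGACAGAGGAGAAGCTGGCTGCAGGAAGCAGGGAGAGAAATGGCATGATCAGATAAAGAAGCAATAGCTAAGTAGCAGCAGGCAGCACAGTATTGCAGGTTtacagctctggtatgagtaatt
Setdb1 young with Kap1 young, chr19:12852386-12852585, plus strand: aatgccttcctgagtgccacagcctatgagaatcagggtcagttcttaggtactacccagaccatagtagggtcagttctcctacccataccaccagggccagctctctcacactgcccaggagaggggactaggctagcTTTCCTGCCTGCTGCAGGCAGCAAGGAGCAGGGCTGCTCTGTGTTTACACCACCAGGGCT

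In the first pair the Setdb1 peaks of young and old liver shared all but 1 of their 200 bp, between genes and outside every member window. The second, a young and an old Kap1 peak with 128 bp in common, lay in chr9-B outside every member window, in a gene the annotation does not call protein-coding. The third, near Olfr1444, was a young Setdb1 and a young Kap1 peak with 60 bp in common.

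Over the 4 clusters, Setdb1 and Kap1 peaks were denser than elsewhere on the same chromosomes and H3K14ac peaks were not. Setdb1 had 190 young peaks in the clusters, 32.1 per Mb (27.7 to 37.0, exact Poisson interval), against 23.6 per Mb on the rest of chromosomes 9 and 19. Its old list had 54, or 9.13 per Mb (6.86 to 11.9), against 5.26. Both lists were thus denser in the clusters, by 1.36 and 1.73 times. The young excess was not there in the first 50% of the list as deposited, where the fold was 0.988.

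Kap1 had 161 young peaks in the clusters, 27.2 per Mb (23.2 to 31.8), against 16.5 per Mb elsewhere. In old liver it had 80, 13.5 per Mb (10.7 to 16.8), against 7.93. The folds were 1.65 and 1.71, and on chromosome 19 alone 1.25 and 1.21. H3K14ac had 36 young peaks, 6.09 per Mb (4.26 to 8.43), against 7.64, and 26 old peaks, 4.40 per Mb (2.87 to 6.44), against 8.22. The old H3K14ac interval thus ended below the density of the rest, while the young one included it.

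**Figure D1:**
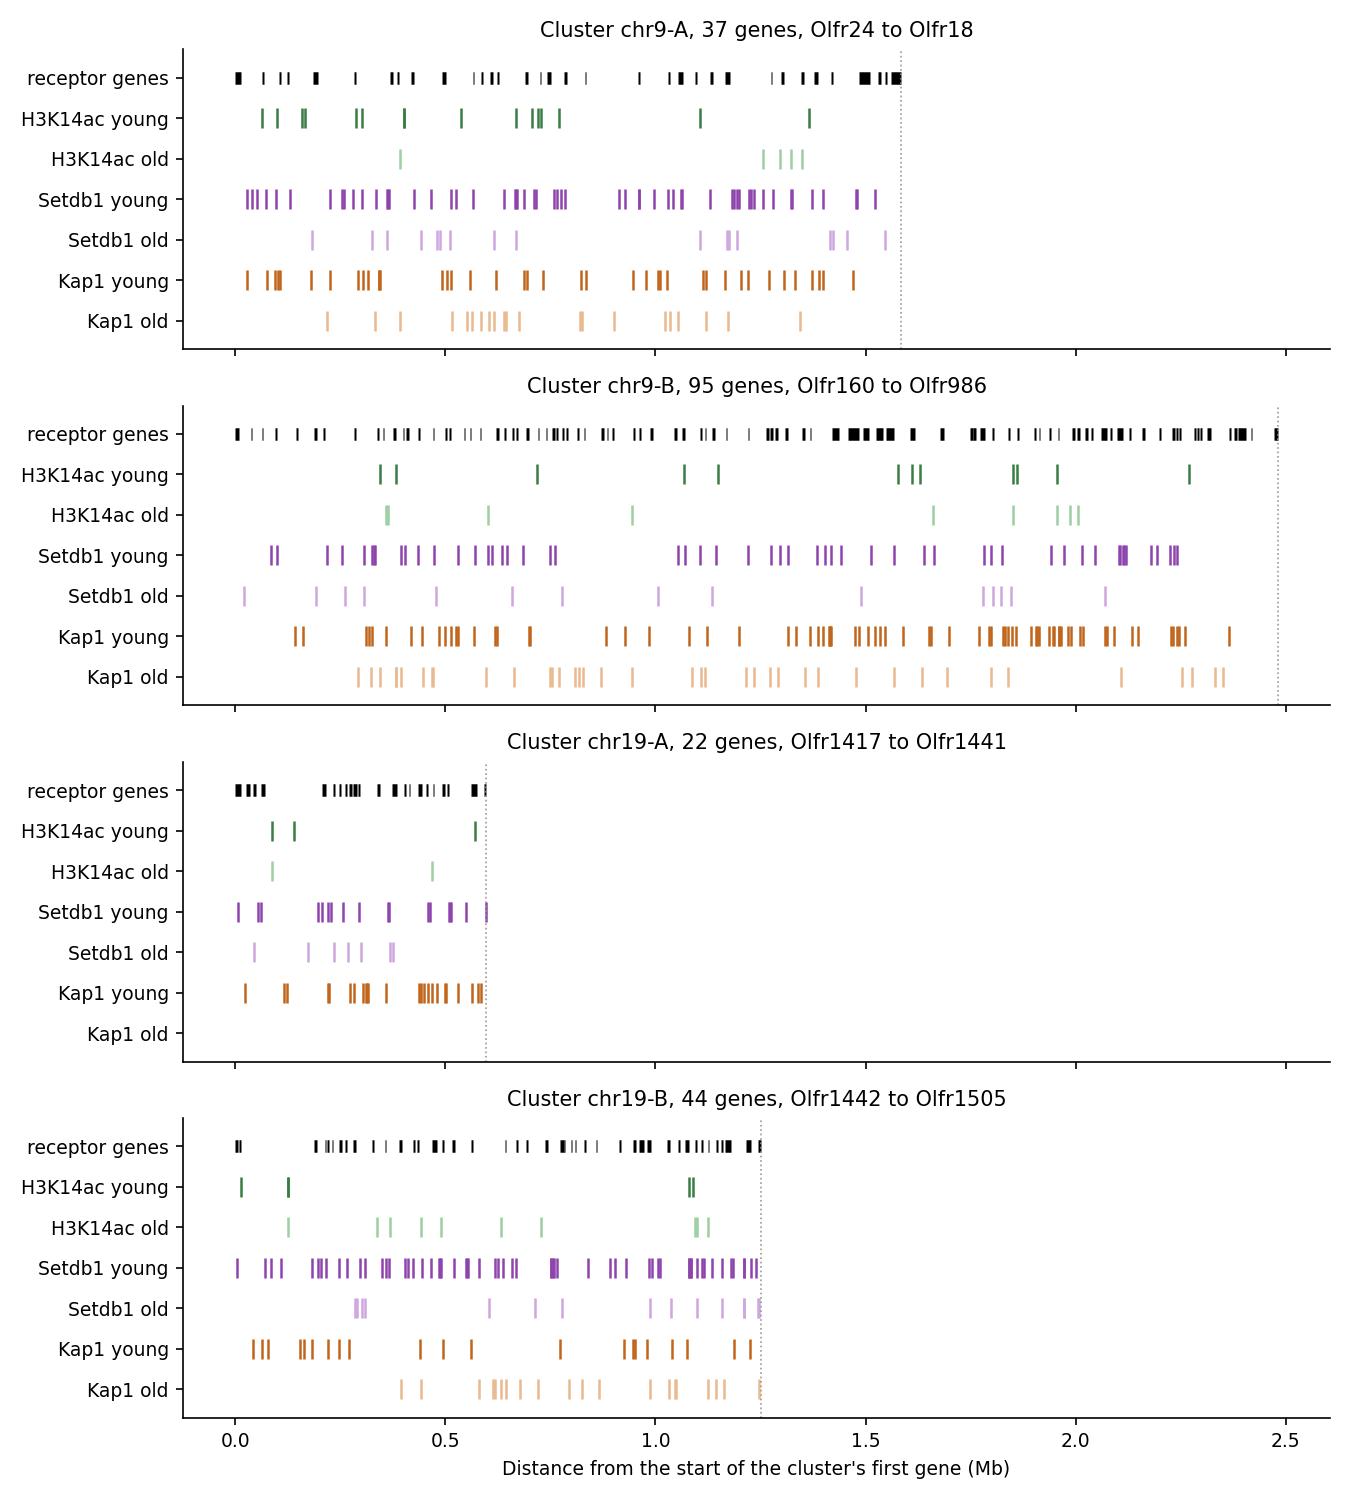
Positions of the 198 receptor genes (black) and of the peaks of the 6 lists (coloured ticks) along each cluster, in Mb from the start of its first gene, with a dotted line at the cluster's end. Old Kap1 has no tick in chr19-A, where young Kap1 has 24.

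The clusters did not share 1 pattern. Young Setdb1 was densest in chr19-B, with 61 peaks or 48.7 per Mb (37.3 to 62.6), and least dense in chr9-B, with 54 peaks or 21.8 per Mb (16.3 to 28.4). The intervals of these clusters did not meet. Chr9-A had 57 (36.0 per Mb) and chr19-A 18 (30.2 per Mb), and the interval of the latter (17.9 to 47.7) included the 30.7 per Mb of the rest of its chromosome. The rest of chromosome 9 had 20.1 per Mb. Relative to the rest of their own chromosome the order was another, with folds of 1.79 in chr9-A, 1.59 in chr19-B, 1.08 in chr9-B and 0.981 in chr19-A. Among 52072 windows of the length of chr19-B placed every 50 kb along the genome, 56 (0.108%) held 61 or more young Setdb1 peaks, and the median window held 24. These windows overlap heavily. They were placed over the whole genome, which had 18.6 per Mb, below the 30.7 per Mb of the rest of chromosome 19. For the other clusters, the share of windows of their length with as many or more was 1.70% in chr9-A, 14.1% in chr19-A and 36.7% in chr9-B.

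Young Kap1 took another order. Its density was 40.2 per Mb in chr19-A (24 peaks), 30.6 in chr9-B (76), 25.2 in chr9-A (40) and 16.8 in chr19-B (21 peaks, 10.4 to 25.7). The folds over the rest of their own chromosome were 2.07, 2.03, 1.67 and 0.863, in the same order. The cluster with the most Setdb1 per Mb therefore had the fewest Kap1 peaks per Mb in young liver. Within the clusters, the 100 kb with most peaks of any list was a stretch of chr9-B with 12 young Kap1 peaks around Olfr148, Olfr960, Olfr961 and Olfr963, and 11 members in a row from Olfr44 to Olfr150 had a young Kap1 peak in their window.

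**Figure D2:**
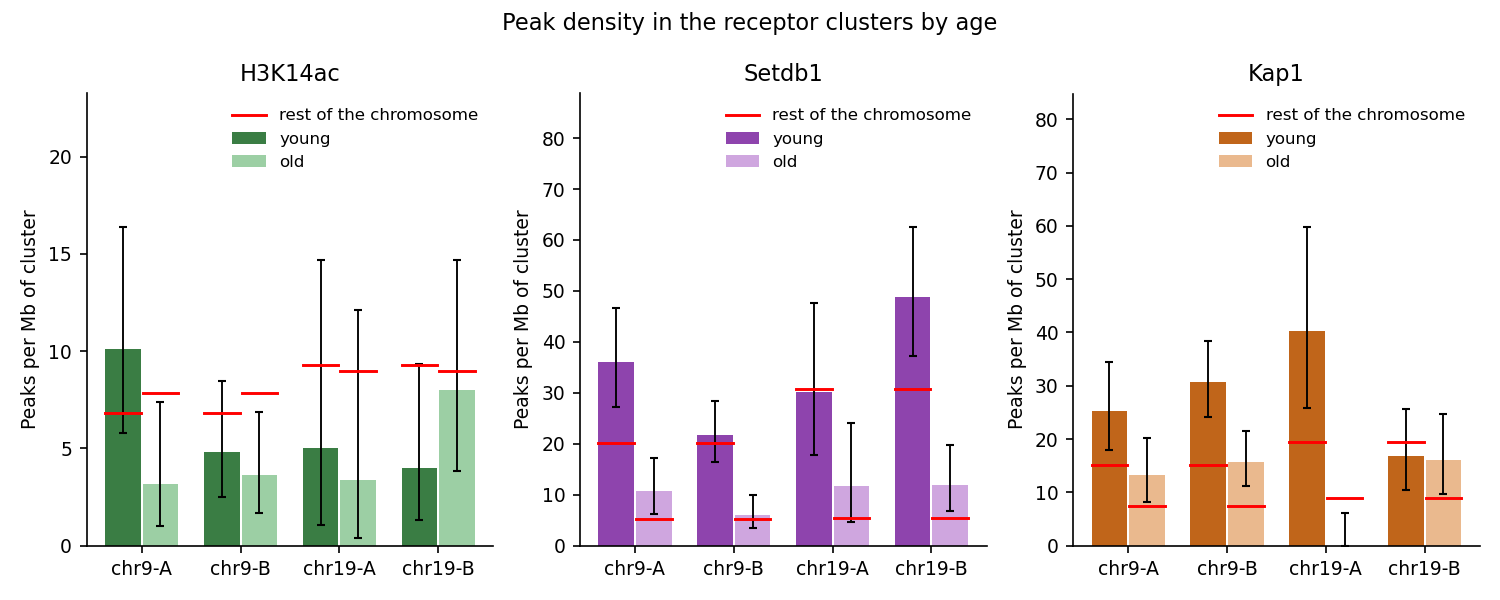
Peaks per Mb in each cluster for young (dark) and old (light) liver, with exact 95% Poisson intervals, and red lines for the rest of the same chromosome. The young Setdb1 bar of chr19-B reaches 48.7 per Mb and the old Kap1 bar of chr19-A is at 0.

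The old Setdb1 list had fewer peaks than the young one in the clusters, as it did elsewhere. Old Setdb1 peaks in the clusters numbered 28.4% of young ones (20.6 to 38.6%, exact Clopper-Pearson interval turned into a ratio), against 22.3% on the rest of the chromosomes. Within the first 50% of each list they numbered 67.2%. The 4 clusters lay between 24.6% in chr19-B and 38.9% in chr19-A. Kap1 stood at 49.7% (37.5 to 65.4%), against 48% elsewhere. H3K14ac stood at 72.2% (41.9 to 123%), against 108%, but at 37.5% in the first 50% of each list and at 150% on chromosome 19 alone.

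Within Kap1 the clusters of chromosome 19 parted. In chr19-A the list went from 24 young peaks to 0 old peaks, which allows an old density of up to 6.18 per Mb and a ratio of up to 16.6%. In chr19-B it went from 21 to 20, a ratio of 95.2% (49.0 to 185%). The intervals did not meet, and the rest of chromosome 19 stood at 46.1%. Of 4843 windows of the length of chr19-A that held 24 or more young Kap1 peaks, 96 (1.98%), in 16 separate stretches, held no old one. Both chromosome 9 clusters were near the rest, at 52.5% in chr9-A and 51.3% in chr9-B. The 10 members of chr19-A with young Kap1 in their window were Olfr1418, Olfr1423, Olfr1427, Olfr1428, Olfr235, Olfr1434, Olfr1436, Olfr1437, Olfr1438-ps1 and Olfr1440, and the last 6 of them are consecutive genes. Other old lists did reach chr19-A, with 7 Setdb1 and 2 H3K14ac peaks. In chr19-B, by contrast, 13 members had old Kap1. Of these, Olfr1490 and Olfr1491 also had young Kap1 (15.4%), against 23.4% of all members with old Kap1.

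H3K14ac moved unevenly on small counts. In chr9-A it went from 16 young to 5 old peaks and in chr9-B from 12 to 9, while in chr19-B it went from 5 to 10 and in chr19-A from 3 to 2. The interval of each cluster's ratio included 100% except that of chr9-A, 31.3% (8.95 to 89.3%).

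Counted by gene, a peak was looked for in the gene body plus 5 kb on each side. Young Setdb1 had a peak in 78 members (39.4%), against 43.7% of all protein-coding genes, and old Setdb1 in 30 (15.2%), against 17.8%. Young Kap1 had one in 70 members (35.4%; all genes 34.4%) and old Kap1 in 47 (23.7%; all genes 19.3%). These shares lay near those of all genes. H3K14ac was met in 16 members in young liver (8.08%; all genes 32.5%) and in 11 in old liver (5.56%; all genes 40.4%), far below them.

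That window depends on gene length, and members were short, with a median of 5540 bp against 17425 bp for all protein-coding genes. A window of 5 kb on each side of the gene start has the same length for every gene. There, young Setdb1 had a peak in 50 members (25.3%, Wilson interval 19.7 to 31.7%), against 14.8% of all genes, and old Setdb1 in 24 (12.1%, 8.28 to 17.4%), against 4.4%. Young Kap1 had one in 46 (23.2%, 17.9 to 29.6%), against 13.8%, and old Kap1 in 27 (13.6%, 9.54 to 19.1%), against 6.87%. H3K14ac had one in 8 members in young liver (4.04%), against 21.8%, and in 7 in old liver (3.54%), against 29.9%. At equal window length, receptors thus had peaks of both proteins more often than genes at large, and of the acetylation mark less often.

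**Figure D3:**
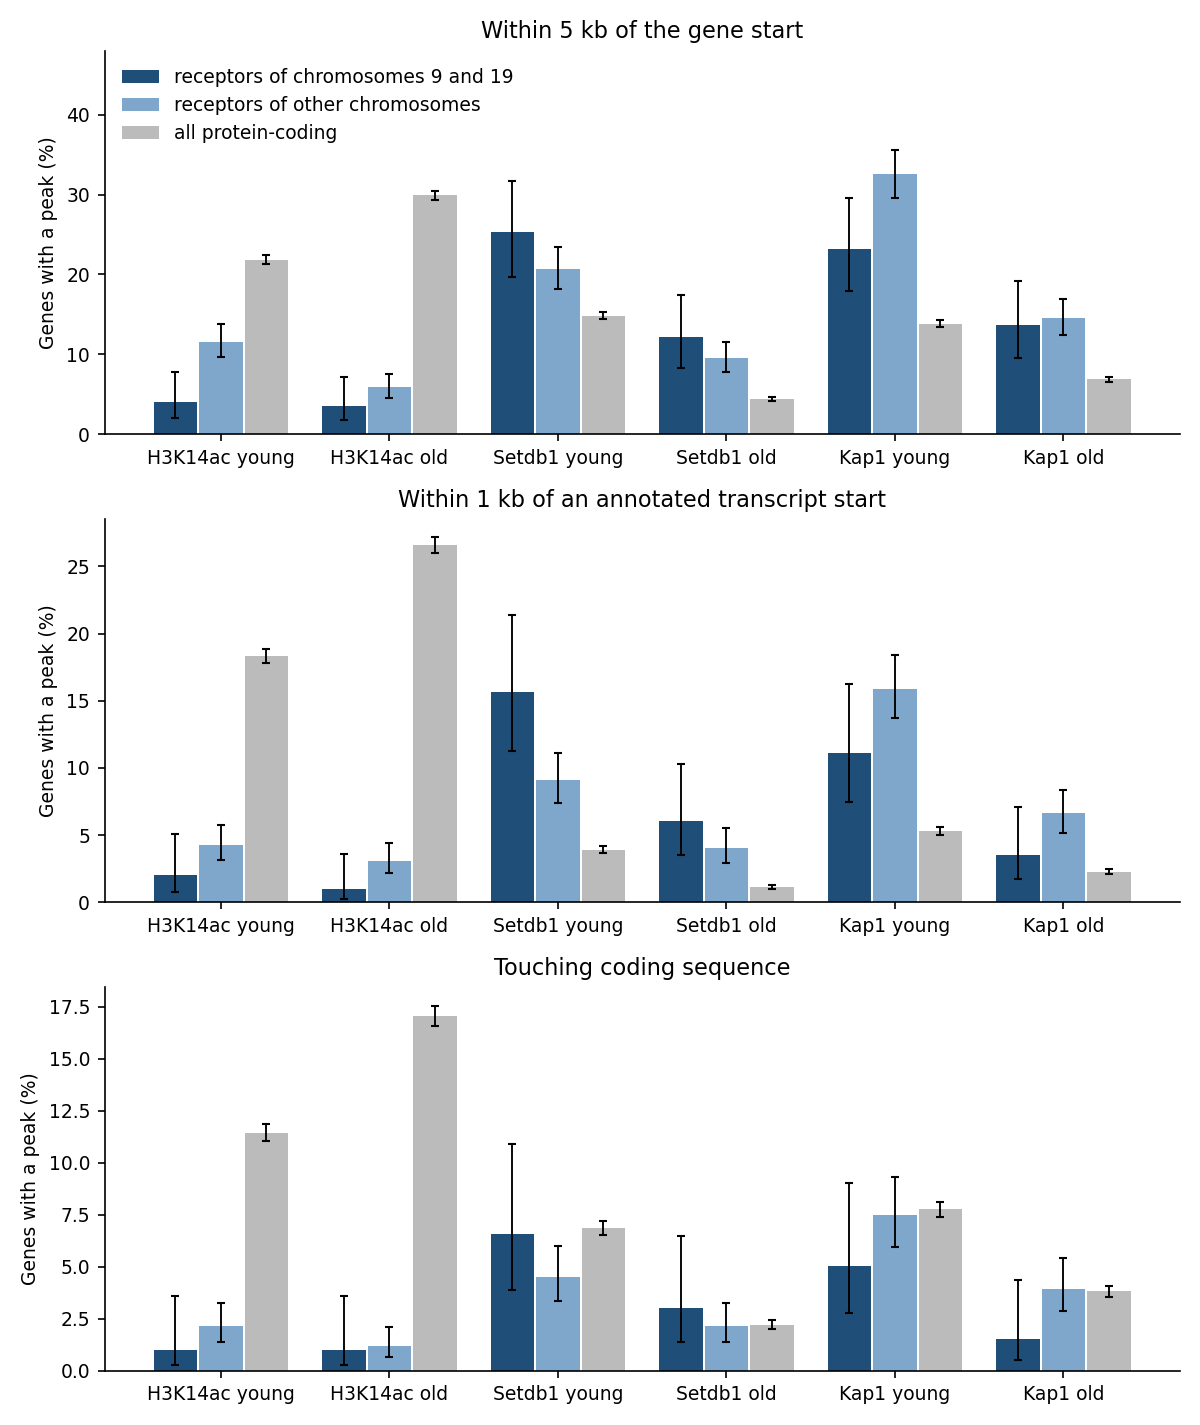
Share of genes (%) with a peak of each list within 5 kb of the gene start, within 1 kb of any annotated transcript start, and on coding sequence, for the 198 receptors of chromosomes 9 and 19, the 937 receptors of other chromosomes and all 21938 protein-coding genes, with Wilson 95% intervals. Receptor bars stand above the grey bars for Setdb1 and Kap1 near starts and below them for H3K14ac.

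A narrower window was taken around every annotated transcript start rather than the gene start alone, so the 2 windows differ in more than width. Within 1 kb of any annotated transcript start, young Setdb1 had a peak in 31 members (15.7%, 11.3 to 21.4%), against 3.91% of all genes, and old Setdb1 in 12 (6.06%, 3.50 to 10.3%), against 1.15%. Young Kap1 had one in 22 (11.1%, 7.45 to 16.2%), against 5.32%, and old Kap1 in 7 (3.54%, 1.72 to 7.12%), against 2.3%, which that interval includes. H3K14ac had one in 4 members in young liver (2.02%), against 18.3%, and in 2 in old liver (1.01%), against 26.6%. Members had 2.12 annotated starts on average and all protein-coding genes 1.89, and 82.8% of members had several, against 51.0% of all genes. A peak this close to a start can lie on coding sequence. The 31 members with young Setdb1 included all 13 that had it on coding sequence. On chromosome 19, 17 of 66 members (25.8%, 16.7 to 37.4%) had young Setdb1 this close to a start, and on chromosome 9, 14 of 132 (10.6%, 6.42 to 17.0%). The intervals overlapped slightly. Those of chromosome 19 were Olfr1420, Olfr76, Olfr1434, Olfr1438-ps1, Olfr1441, Olfr1442, Olfr1449, Olfr1453, Olfr1462, Olfr1466, Olfr1490, Olfr1494, Olfr1495, Olfr1496, Olfr1500, Olfr1501 and Olfr1504, and only Olfr1495 and Olfr1500 had Setdb1 this close at both ages. The share of all genes with it this close at both ages was not counted.

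Coding sequence itself was not met more often than in genes at large by most lists. Young Setdb1 touched it in 13 members (6.57%), against 6.86% of all genes, and old Setdb1 in 6 (3.03%), against 2.21%. Young Kap1 touched it in 10 (5.05%), against 7.76%, and old Kap1 in 3 (1.52%), against 3.81%. H3K14ac touched 2 members in young liver (1.01%; all genes 11.4%) and 2 in old liver (1.01%; all genes 17.1%). The median coding length was 936 bp in members and 1188 bp over all genes.

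Young Setdb1 met receptor coding sequence more often on chromosome 19 than on chromosome 9, and outside the clusters it was also denser there (30.7 against 20.1 peaks per Mb). It touched the coding sequence of 10 of 66 members of chromosome 19 (15.2%, 8.44 to 25.7%) and of 3 of 132 on chromosome 9 (2.27%, 0.776 to 6.47%). Young Kap1 touched it in 2 members of chromosome 19 (3.03%, 0.835 to 10.4%) and 8 of chromosome 9 (6.06%, 3.10 to 11.5%), with overlapping intervals, and old Kap1 in 3 of chromosome 19 and 0 of chromosome 9. On chromosome 19 the members with young Setdb1 on coding sequence were Olfr1434, Olfr1441, Olfr1442, Olfr1449, Olfr1453, Olfr1462, Olfr1490, Olfr1494, Olfr1495 and Olfr1496. On chromosome 9 they were Olfr922, Olfr974 and Olfr975. All of these members also had young Setdb1 within 1 kb of a start, so this contrast between the chromosomes and the one near starts overlap.

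**Figure D4:**
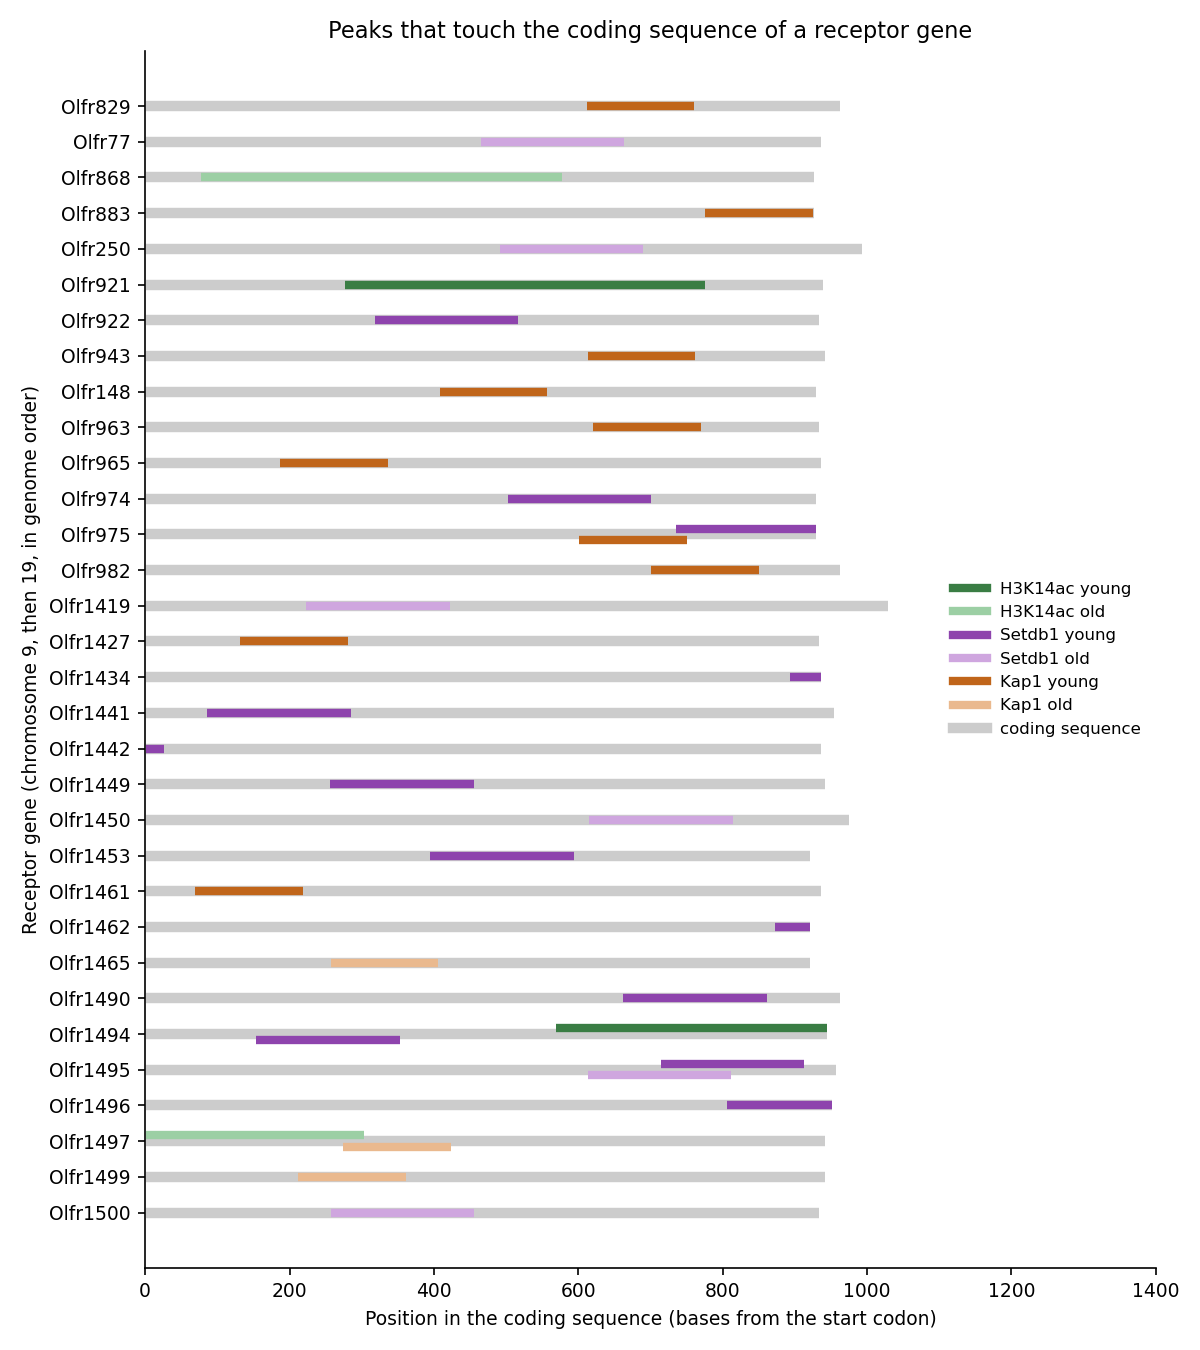
Each grey bar is the coding sequence of a receptor in bases from its start codon, for every member with a peak on it, and coloured bars are the coding bases inside the peak. Setdb1 bars fall from the start of the frame (Olfr1442) to its end (Olfr1496), mostly in genes of chromosome 19.

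Of the 36 young H3K14ac peaks of the clusters, 26 (72.2%) lay between genes, about as many as of young Setdb1 (77.4%) and young Kap1 (71.4%) peaks. Member windows, which take 50.2% of the clusters' length, held 16 of the 36 (44.4%), 1 per member. Those members were Olfr828, Olfr829, Olfr835 and Olfr850 in chr9-A, Olfr884, Olfr887, Olfr901, Olfr921, Olfr26, Olfr948, Olfr959 and Olfr963 in chr9-B, Olfr1440 in chr19-A, and Olfr1443, Olfr1494 and Olfr1495 in chr19-B. In old liver they were Olfr837, Olfr867, Olfr868, Olfr916, Olfr963, Olfr149, Olfr965, Olfr1436, Olfr1461, Olfr1495 and Olfr1497. Only Olfr963 and Olfr1495 had H3K14ac in their window at both ages (1.01%), as did 3.52% of the receptors of other chromosomes. The same share over all protein-coding genes was not counted, so 1.01% is not set against genes at large. At Olfr963 the young and old peaks shared 41 bp upstream of the gene start. Within 1 kb of a start, H3K14ac was found at Olfr850, Olfr921, Olfr948 and Olfr1494 in young and at Olfr1495 and Olfr1497 in old liver.

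Long runs of receptors had no H3K14ac in their windows. In young liver the longest run was 32 consecutive members of chr19-B, from Olfr1444 to Olfr1493-ps1, and in old liver 37 of chr9-B, from Olfr160 to Olfr914. Kap1 and Setdb1 left shorter gaps in young liver. The longest run without young Setdb1 was 11 members, Olfr906 to Olfr919, and without young Kap1 9 members, Olfr901 to Olfr912. Runs of members with a peak were short for Setdb1, at most 5 in young liver, from Olfr1442 to Olfr1446.

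Among single receptors, Olfr1494 and Olfr974 had the most peaks in their windows, 6 each over all lists. Olfr1494 (chr19:13739728-13750479) had 1 H3K14ac, 4 Setdb1 and 1 Kap1 peak in young liver and none in old liver. A young H3K14ac peak covered its last 377 coding bases, and the Setdb1 peak shown above lay earlier in the same exon. Olfr1495 (chr19:13764606-13770248), the next receptor, had 1 young and 2 old H3K14ac peaks, 1 Setdb1 peak at each age and no Kap1 peak. Olfr974 (chr9:39937501-39945170) had 3 Setdb1 and 3 Kap1 peaks in its window, all in young liver. Of these, a Setdb1 and a Kap1 peak lay on the coding sequence of its neighbour Olfr975. The richest 100 kb of young Setdb1 in any cluster, with 9 peaks, held Olfr1494, Olfr1495, Olfr1496, Olfr1497, Olfr1499 and Olfr1500.

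Other members stood out for 1 protein. Young Setdb1 had 4 peaks at Olfr970 and 3 at Olfr974 and Olfr1438-ps1. Its old list had at most 2 peaks per member, at Olfr1450, Olfr1505, Olfr77 and Olfr870. Young Kap1 had 3 peaks at Olfr27, Olfr1537, Olfr963 and Olfr974, and none of these had an old Kap1 peak. Old Kap1 had 2 at Olfr846, Olfr887, Olfr891, Olfr904 and Olfr911-ps1, none of which had a young one. Absence at the other age was common. Of all members with young Kap1, 15.7% also had old Kap1, and of those with old Kap1, 23.4% also had young Kap1.

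Across the lists, 45 members (22.7%) had no peak at all in their window, against 20.7% of all protein-coding genes. Another 77 had peaks of 1 list (38.9%; all genes 25.2%), 57 of 2 lists (28.8%; 23.9%) and 15 of 3 lists (7.58%; 14.7%). Olfr1490, Olfr1495, Olfr77 and Olfr957 had peaks of 4 lists (2.02%; 8.66%), and no member had peaks of 5 or 6, as 4.58% and 2.22% of all genes did. Those with 3 lists were Olfr1461, Olfr1491, Olfr1494, Olfr1500, Olfr1504, Olfr1505, Olfr835, Olfr58, Olfr944, Olfr945, Olfr44, Olfr958, Olfr963, Olfr965 and Olfr976. Neighbouring windows overlapped in 85 members, so a peak could count for several of them, which 7 young Setdb1 peaks and 6 young Kap1 peaks did.

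Setdb1 and Kap1 of the same age shared some members. In young liver 29 members had a peak of each (14.6%), against 20.7% of all genes, which was 37.2% of the Setdb1 members and 41.4% of the Kap1 members. These were near the 35.4% of all members with young Kap1 and the 39.4% with young Setdb1. In old liver 9 had both (4.55%), against 6.72%. Across age, 13 members had Setdb1 at both ages (6.57%; all genes 12.3%), or 43.3% of the 30 with old Setdb1. They were Olfr1424, Olfr1426, Olfr76, Olfr1490, Olfr1495, Olfr1500, Olfr1504, Olfr1505, Olfr77, Olfr924, Olfr944, Olfr44 and Olfr957. For Kap1, 11 members had it at both ages (5.56%; all genes 12.8%), or 23.4% of the 47 with old Kap1. They were Olfr1490, Olfr1491, Olfr58, Olfr77, Olfr883, Olfr923, Olfr943, Olfr945, Olfr957, Olfr958 and Olfr976. Most members with old Kap1 thus had no young Kap1 in the same window. Over all protein-coding genes, 2809 of the 4237 with old Kap1 also had young Kap1. For Setdb1, 2708 of the 3909 genes with an old peak also had a young one. The windows of all genes are longer by median, and this difference was not adjusted for.

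At the level of bases, peaks rarely coincided. Kap1 peaks of young and old liver overlapped 4 times in the clusters, at Olfr957, at Olfr958 and at 2 places outside member windows. That was 2.48% of the young and 5% of the old cluster peaks, against 7.61% and 17.1% in the whole lists. Setdb1 peaks of the ages overlapped 3 times (1.58% of young and 5.56% of old, whole lists 0.854% and 3.11%). Young Setdb1 and young Kap1 met at 4 places, near Olfr849, Olfr869, Olfr974 to Olfr976 and Olfr1444, and the old lists met at 1, near Olfr1505. The young pairs were 2.11% of the Setdb1 and 2.48% of the Kap1 cluster peaks, against 2.07% and 2.15% in the whole lists, and the old pair 1.85% and 1.25%, against 1.82% and 1.16%. Setdb1 and Kap1 thus coincided about as rarely in the clusters as in the whole lists. None of the 36 young H3K14ac peaks of the clusters met a young Setdb1 or Kap1 peak, and in the whole lists 2.70% met young Setdb1 and 12.1% young Kap1. In old liver 3 of 26 met Kap1 (11.5%, whole list 6.65%), at Olfr916, at Olfr1497 and outside windows.

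Receptors of other chromosomes gave the nearest comparison. Within 5 kb of the gene start they had young H3K14ac in 11.5% of 937 genes (9.64 to 13.7%), more often than the 4.04% (2.06 to 7.77%) of members. Young Kap1 was there in 32.6% (29.6 to 35.6%) against 23.2% (17.9 to 29.6%) of members, with intervals that came close and did not meet. Young Setdb1 was there in 20.7% (18.2 to 23.4%) against 25.3% (19.7 to 31.7%), with overlapping intervals. In old liver the shares were not separated, with H3K14ac in 5.87% (4.54 to 7.56%) against 3.54% (1.72 to 7.12%) and Kap1 in 14.5% (12.4 to 16.9%) against 13.6% (9.54 to 19.1%). Within 1 kb of a start the intervals of young H3K14ac overlapped, 4.27% (3.15 to 5.76%) in the other receptors and 2.02% (0.788 to 5.08%) in members, as did those of young Kap1, 15.9% (13.7 to 18.4%) and 11.1% (7.45 to 16.2%). Young Setdb1 there stood at 9.07% (7.40 to 11.1%) in the other receptors and 15.7% (11.3 to 21.4%) in members. Of the other receptors with old Kap1 in their window, 70.1% also had young Kap1, against the 23.4% of members given above. Vomeronasal receptors, the pheromone receptors of a second nasal organ, had young Kap1 within 5 kb of the start in 40.2% of 331 genes and young Setdb1 in 18.4%.

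Genes that are not receptors but lie in the clusters held part of the H3K14ac. Patl1, an mRNA decapping factor, had H3K14ac within 1 kb of a start at both ages, as did the neighbours Zfp91, a zinc finger protein, and Lpxn, the adaptor leupaxin, which share their peaks. Osbp, an oxysterol-binding protein, had it in young liver alone. These 4 genes accounted for 4 of the 8 young and 2 of the 12 old H3K14ac peaks of the chromosome 19 clusters. Zfp317, a KRAB zinc finger gene in chr9-A, had 1 old Kap1 peak and no other. Vwa5a, AW551984, Tmem225, Keg1, Cntf and Gm5244 had no H3K14ac peak.

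The 20 genes of a list of olfactory signalling and receptor choice, none of them a member, were counted in the same way, in the body plus 5 kb. Young Setdb1 had a peak in 14 of them (70%; all genes 43.7%) and old Setdb1 in 8 (40%; 17.8%), young Kap1 in 7 (35%; 34.4%) and old Kap1 in 3 (15%; 19.3%). Many are long genes, and within 5 kb of the start young Setdb1 was in 3 (15%), near the 14.8% of all genes, and young Kap1 in 0. Ebf1, a transcription factor of olfactory neurons, had 7 young Setdb1 peaks, Ano2, the chloride channel of the cilia, had 5, and Gnal, the olfactory G protein, had 4. Adcy3, the adenylyl cyclase of the pathway, had 2 young and 3 old Setdb1 peaks. H3K14ac was in 5 of the 20 in young liver (25%; all genes 32.5%) and 8 in old liver (40%; 40.4%). Within 1 kb of a start it was in 3 in young (15%; all genes 18.3%) and 5 in old liver (25%; 26.6%). Gnb1, Ldb1 and Atf5, which are widely expressed genes, had it there at both ages, and Ric8b and Lbr in old liver alone.

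The liver label was set beside 10 hepatocyte markers. H3K14ac lay within 1 kb of a start in 3 of them at each age, Apoa1, Apob and Trf in young and Apoa1, Apob and Ttr in old liver (30%, 10.8 to 60.3%; all genes 18.3% young and 26.6% old). Within 5 kb of the gene start it was in 5 of 10 at each age (50%, 23.7 to 76.3%; all genes 21.8% and 29.9%), and on coding sequence in 4 of 10 at each age (40%, 16.8 to 68.7%; all genes 11.4% and 17.1%). The gene body plus 5 kb held it in 6 of 10 young (60%; all genes 32.5%) and 5 of 10 old (50%; 40.4%). The young intervals of the 5 kb and coding windows lay above the share of all genes, and those of the 1 kb window included it. Alb, Fgb, Serpina1c and Cps1 had none at either age, so absence from these lists did not mark a gene as unused by the liver.

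The clusters were poor in GC and rich in repeats. They had 37.7 to 40.6% GC, against 42.7% on both chromosomes, and 39.7 to 55.9% of their bases were soft-masked repeats, against 32.0% and 31.0%. Setdb1 peaks in the clusters averaged 40.5% GC (SD 7.15, n = 190) in young and 42.2% (SD 6.98, n = 54) in old liver, below the 44.6% and 45.2% of the same lists elsewhere on these chromosomes. Kap1 peaks there averaged 46.6% and 46.0%, near the 47.5% and 46.6% elsewhere. H3K14ac peaks there averaged 44.3% and 43.8%, against 50.8% and 54.7%, and held 12.6 and 13.6 CpG per kb against 27.3 and 42.2.

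Cluster peaks held more repeats than other peaks did. A mean 40.0% of the bases of young Setdb1 peaks in the clusters were soft-masked, against 23.5% elsewhere, and 38.7% of those of old Kap1 peaks, against 28.2%. All 6 lists were nonetheless below the 47.7% of the clusters' own 200-bp tiles. A further copy in the genome, over 90% of the length at 95% identity, was found for 16.1% of those tiles. It was found for 7 of 190 young Setdb1 peaks (3.68%) and 1 of 54 old ones (1.85%). For Kap1 it was 3 of 161 young (1.86%) and 3 of 80 old peaks (3.75%), and for H3K14ac 0 of 62. Kap1 and H3K14ac peaks were mostly 150 and 500 bp wide, so their width differs from that of the tiles. The authors kept only uniquely aligned reads, and the part of this step in the counts was not tested.

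**Figure D5:**
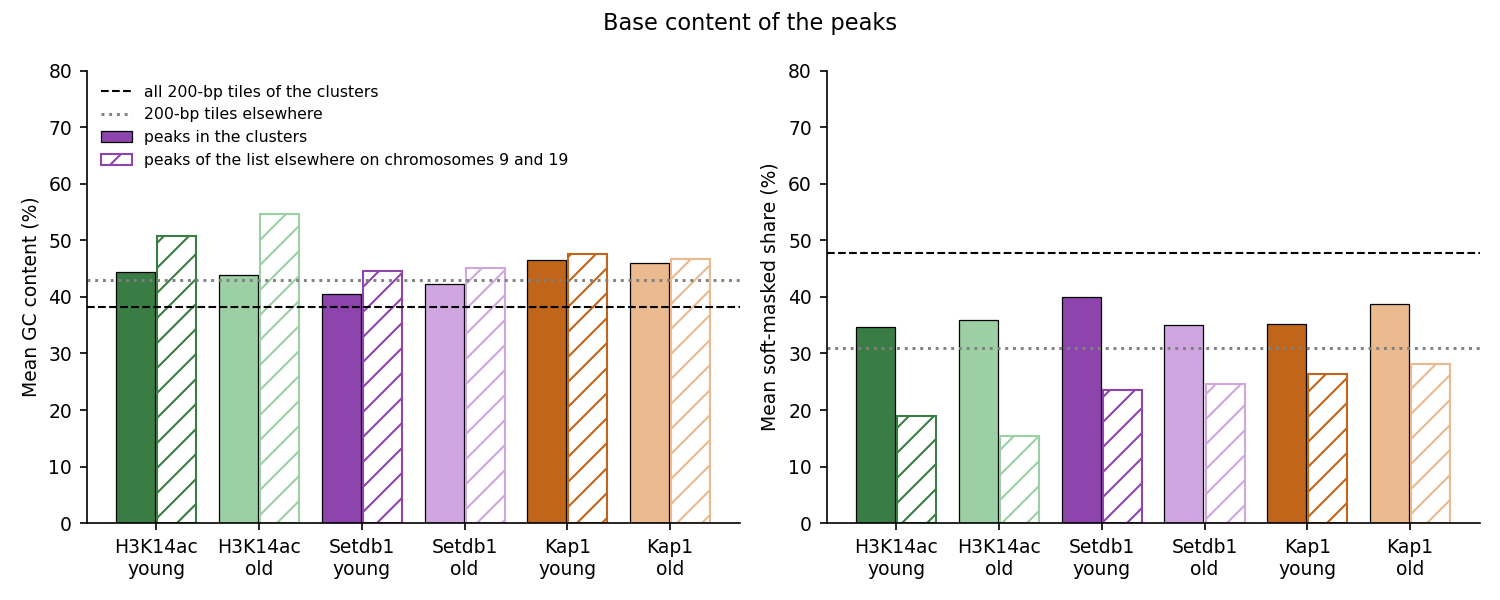
Mean GC content and mean soft-masked share (%) of the peaks in the clusters (filled) and of the same list elsewhere on chromosomes 9 and 19 (hatched), with lines for 200-bp tiles of the clusters (dashed) and of the rest (dotted). Cluster peaks of every list are richer in repeats than the list's other peaks, and H3K14ac and Setdb1 peaks there are lower in GC.

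Promoters, taken as 250 bases before to 50 after a RefSeq start in GRCm38.p6, were available for 168 members in 169 sequences. They averaged 34.9% GC, against 53.8% over 32851 promoters. Peaks of any list met 5 of them, those of Olfr850 and Olfr948 (young H3K14ac), Olfr1497 (old H3K14ac), Olfr1442 (young Setdb1) and Olfr1446 (young Kap1). Of the 169, young H3K14ac thus met 1.18% (all promoters 7.33%) and old H3K14ac 0.592% (11.7%). Young Setdb1 met 0.592% (all promoters 0.898%), young Kap1 0.592% (1.132%), and the old lists of both proteins met 0 (0.259% and 0.511%). On these small counts, neither protein was more frequent at receptor promoters than at all promoters, unlike in the wider windows around starts. That of Olfr1446 is shown because a whole Kap1 peak lay inside it, marked in capitals.
Olfr1446 promoter, chr19:12890526-12890825, minus strand: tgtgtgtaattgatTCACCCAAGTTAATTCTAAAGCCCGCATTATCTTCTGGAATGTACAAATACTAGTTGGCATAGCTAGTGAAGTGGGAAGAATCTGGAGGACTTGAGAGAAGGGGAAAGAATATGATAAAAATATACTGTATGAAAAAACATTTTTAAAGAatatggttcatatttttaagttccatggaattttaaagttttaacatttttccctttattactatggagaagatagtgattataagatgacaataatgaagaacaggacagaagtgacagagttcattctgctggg
The homeodomain core TAATTA, searched on both strands, was found in 41 of the 169 member promoters (24.3%) and in 5.29% of all promoters, and TATAAA in 67 (39.6%) and 13.6%. Promoters of the other olfactory receptors were alike, with 17.3% for TAATTA, 41.3% for TATAAA, 0.642% for the palindrome and 36.4% GC. TAATTA and TATAAA can overlap, and none of the 5 promoters with a peak held any of these motifs.

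The lists were not sorted by position, and what orders them is not stated in the sources used here. Cluster peaks were unevenly placed in that order. Of the young Setdb1 peaks in the clusters, 58 of 190 (30.5%, 24.4 to 37.4%) stood in the first 50% of their list, and of the old ones 39 of 54 (72.2%, 59.1 to 82.4%). For Kap1 it was 101 of 161 (62.7%) and 55 of 80 (68.8%), and for H3K14ac 16 of 36 (44.4%) and 6 of 26 (23.1%). Young Setdb1 and old H3K14ac peaks of the clusters thus came late in their list, and those of old Setdb1 and of Kap1 at either age came early.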

How the data were processed

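Peak positions (genome coordinates in bp, with no score) were used as deposited, 1 list per antibody and age. Per the paper's methods, the authors aligned reads to mm10 with BWA v0.7.12, removed duplicates with Picard v1.134, kept uniquely aligned reads of phred score 30 or more, merged the livers of an age, and took peaks over the input control from PeakSeq at an FDR of 5% (q-value 0.02 for H3K14ac, 0.04 for Setdb1, 0.05 for Kap1). Peaks in the clusters were mostly 500, 200 and 150 bp wide for H3K14ac, Setdb1 and Kap1. H3K9me3, Hdac3 and sequential ChIP were not analysed here.

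Genes were those of GENCODE M21 basic. A peak counted with at least 1 bp in a window. The counting was tested on simulated data and checked against bedtools 2.31.1. Intervals were computed with SciPy 1.17.1, and further copies sought with minimap2 2.31-r1302 at 90% of the length and 95% identity, using the central 500 bp of wider peaks. Each list is a pool with no replicate values, so no test was run and comparisons are counts.

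Named genes were, for each list, the members with the most peaks, all members with peaks of 3 or more lists, all with H3K14ac, all whose window held overlapping peaks of 2 lists, the first and last gene of each cluster, and the other genes inside the clusters. Added after the values were seen were the coding-sequence peaks, the promoters with peaks, the order of the lists, and the names of members with a peak within 1 kb of a start, with a protein at both ages, with young Kap1 in chr19-A, in runs or rich stretches, or tied for the most peaks beyond 3. The members and lists were chosen with earlier results of these data known. The alternatives were other windows, cluster joins, midpoint overlap, merged peaks, each chromosome alone, other backgrounds and lengths, and, chosen after seeing the data, the first 50% of each list and clusters without their other genes.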

Additional observations from a re-analysis of the deposited data

How the results depend on the processing

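Of 198 values under other settings, 161 stayed within the interval of the main value (or within 1.5 times a count of members) and 37 did not. Members with a peak, given as H3K14ac young and old, Setdb1 young and old, and Kap1 young and old, numbered 10, 5, 45, 18, 42 and 21 with 1 kb on each side. With the fixed window at the start they numbered 8 and 7, 50 for Setdb1 young, and 46 and 27. With 10 kb, H3K14ac old rose to 22. In the first 50% of each list, which lowers counts by construction, members numbered 6 and 1 for H3K14ac, 25 for Setdb1 young and 46 for Kap1 young, and peaks per Mb 2.71 and 1.01 for H3K14ac, 9.81 and 6.59 for Setdb1, and 17.1 and 9.30 for Kap1. There the fold over the rest was 0.230 for H3K14ac old, 0.988 for Setdb1 young and 2.77 for Setdb1 old, and old peaks were 37.5% of young for H3K14ac and 67.2% for Setdb1.

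By chromosome, Setdb1 young had 27.3 per Mb on chromosome 9 and 42.7 on chromosome 19, with near folds over the rest of each (1.36 and 1.39). Chromosome 19 alone gave 6.49 per Mb for H3K14ac old, folds of 0.466 for H3K14ac young, 1.25 for Kap1 young and 1.21 for Kap1 old, and 150% old against young for H3K14ac. Over bases not soft-masked, Setdb1 young had 38.1 and Kap1 young 35.6 per Mb. Against the whole genome the fold of Setdb1 young was 1.73.

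No paired analysis was possible because each list pools the livers of an age, and for the same reason leaving out replicates was not run. With unknown depth and different thresholds per antibody, a missing peak is not shown to be missing binding, and densities of different antibodies are not on 1 scale.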
